A study of Homo sapiens with 4 samples.

Results

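The genes described here are the glucocorticoid receptor gene NR3C1 and genes that report steroid receptor activity or prostate luminal identity, namely FKBP5, STEAP1, STEAP2, TMPRSS2, KLK2, KLK3 and FOLH1. They were chosen by name, and 5 of the 8 had a row among the 35211 genes of the deposited count table. KLK2, KLK3 and FOLH1 are not analysed here. RNA had been sequenced from PC3 and DU145, human prostate cancer lines derived from metastases and known as androgen independent. Each line had been transfected with a circ0003553 overexpression plasmid or with a negative control plasmid, giving PC3 with circ0003553, PC3 with the control, DU145 with circ0003553 and DU145 with the control. Each of these 4 groups held 1 library of ribosomal RNA-depleted total RNA. The titles of the samples name RCAN3 and not circ0003553, a circular RNA, and counts per gene do not tell circular from linear RNA. Neither transfection efficiency nor exposure of the cells to steroid hormone is given in the sources used here, and nothing in them says that the libraries of a line came from separate cultures.

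Steroid receptors are transcription factors, and several, the glucocorticoid receptor included, are held in the cytoplasm by HSP90 and its co-chaperones until hormone binds. These receptors then enter the nucleus and bind response elements in DNA. Androgens drive the secretory programme of the prostate luminal cell, which includes the kallikrein proteases KLK2 and KLK3 (prostate-specific antigen), the serine protease TMPRSS2 and the metalloreductase STEAP2. The glucocorticoid receptor binds nearly the same DNA sequence and can drive some of the same genes, among them FKBP5, a co-chaperone that lowers the hormone affinity of the receptor and so closes a feedback loop.

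Promoter windows of the members are shown because steroid receptors of this class read the hexamer AGAACA, one arm of their palindromic response element, which is AGAACA, any 3 bases, then TGTTCT. Windows came from RefSeq (GRCh38.p14), which held 14 starts for 6 of the members, NR3C1 with 7, FKBP5 and STEAP2 with 2 each, and STEAP1, KLK2 and KLK3 with 1 each. The windows below run from 220 bases before the start to 30 after it, 5′ to 3′ on the gene's strand, with each AGAACA on either strand in capitals. They are FKBP5 at its distal start (chr6:35728554-35728803, minus strand) and at its proximal start (chr6:35688886-35689135, minus strand), STEAP1 (chr7:90154249-90154498, plus strand), STEAP2 at the upstream one of its starts (chr7:90211520-90211769, plus strand) and KLK3 (chr19:50854695-50854944, plus strand). KLK3, for which no count was analysed, stands as the familiar androgen-regulated promoter.
FKBP5 distal: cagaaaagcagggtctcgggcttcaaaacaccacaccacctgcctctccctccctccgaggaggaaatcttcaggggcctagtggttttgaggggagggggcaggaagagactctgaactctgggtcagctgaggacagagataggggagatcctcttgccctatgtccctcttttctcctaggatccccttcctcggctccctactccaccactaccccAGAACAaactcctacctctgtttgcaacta
FKBP5 proximal: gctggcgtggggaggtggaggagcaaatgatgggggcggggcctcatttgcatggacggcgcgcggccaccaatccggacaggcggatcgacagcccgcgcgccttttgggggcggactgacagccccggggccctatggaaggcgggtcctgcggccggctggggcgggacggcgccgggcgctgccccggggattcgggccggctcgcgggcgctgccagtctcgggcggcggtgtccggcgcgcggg
STEAP1: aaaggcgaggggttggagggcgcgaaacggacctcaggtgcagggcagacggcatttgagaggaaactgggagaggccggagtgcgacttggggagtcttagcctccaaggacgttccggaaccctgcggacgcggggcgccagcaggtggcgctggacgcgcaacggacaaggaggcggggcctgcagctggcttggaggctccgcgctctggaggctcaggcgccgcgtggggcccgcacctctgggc
STEAP2: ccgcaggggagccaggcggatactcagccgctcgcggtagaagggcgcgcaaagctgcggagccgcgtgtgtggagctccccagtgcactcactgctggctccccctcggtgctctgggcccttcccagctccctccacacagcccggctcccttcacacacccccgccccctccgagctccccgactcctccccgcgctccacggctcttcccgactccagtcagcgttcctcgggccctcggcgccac
KLK3: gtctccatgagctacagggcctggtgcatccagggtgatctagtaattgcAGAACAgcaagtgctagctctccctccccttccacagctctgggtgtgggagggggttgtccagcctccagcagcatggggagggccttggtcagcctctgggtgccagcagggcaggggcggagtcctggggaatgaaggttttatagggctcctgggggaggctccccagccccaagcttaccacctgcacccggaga

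Over the full windows of 300 bases, from 250 before to 50 after the start, AGAACA was found at 2 of the 14 member starts. It began at base -170 from the start in KLK3 and at base 1, the start itself, in FKBP5 at the distal start. Of 35116 windows in the table, 5192 (14.8%) held the hexamer on either strand. The whole palindrome was in 1 window (0.00285%), and a relaxed form ending in TGTNCT in 16 (0.0456%), and neither was in a window of a member. The hexamer is part of both longer motifs. A match is a string of letters and no evidence of binding, and steroid hormones are known to act on FKBP5 largely through elements inside its introns, which these windows do not cover.

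Library totals ranged from 33438509 to 39488890 counts. Counts of RCAN3 were 3798 in PC3 with circ0003553 and 1212 in PC3 with the control, and 816 in DU145 with circ0003553 and 639 in DU145 with the control. The line labels were checked on CTNNA1 and STAT3, both deleted in PC3. CTNNA1 had 212 and 139 counts in PC3, against 15131 and 15074 in DU145, and STAT3 had 6 and 2, against 6160 and 7479. The epithelial keratin genes KRT8 and KRT18 had at least 9902 counts in each library, and all 4 epithelial markers were lower in PC3, with CDH1 (E-cadherin) at a log2 fold change of -5.06 and EPCAM at -0.42. Of genes that mark other cells, PTPRC, DCN, CDH5 and ALB had at most 6 counts in any library, while PECAM1 had 595 and 585 in PC3, against 14 and 10 in DU145, and CD68 had 7688 to 20323 counts. Summed over each marker list, scaled CPM (counts per 1e+06 counts of effective library size) came to 524 and 441 in PC3 for leukocytes, against 271 and 195 in DU145, and to 15.3 and 18.2, against 0.869 and 0.455, for endothelium. In PC3 the endothelium sums came mostly from PECAM1. VWF had 0 counts over the PC3 libraries, against 16 over those of DU145, and CDH5 had 3, against 10. The leukocyte sums came mostly from CD68, while PTPRC had 2 counts over the PC3 libraries, against 0, and LYZ 22, against 24. Fibroblast and smooth muscle markers summed to 1.70 and 1.21 in PC3, against 2.15 and 1.59 in DU145, and liver markers to 0.515 and 0.681, against 0.163 and 0. AFP gave the call in the liver list, with 34 counts over the PC3 libraries, against 0 in DU145. It passed the filter on low counts through the PC3 libraries alone, so the direction of its call was fixed by the filter. The part of these markers in the differences between lines was not tested. Low counts were mostly even (70.3% to 75.3% of values from 1 to 20), as when a read pair adds 2, so counting intervals are also given from halved counts.

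The members' levels, compared per length as the authors' RPKM (counts scaled to exon length in kilobases and to library total), spanned a wide range in both lines. In PC3 with circ0003553 and PC3 with the control, STEAP1 stood at 25.4 and 29.8 RPKM, FKBP5 at 5.25 and 5.55, NR3C1 at 2.27 and 1.68, STEAP2 at 0.750 and 0.673, and TMPRSS2 at 0.0331 and 0.0489. In DU145 with circ0003553 and DU145 with the control, FKBP5 stood at 20.04 and 23.8 RPKM, STEAP1 at 12.8 and 15.1, NR3C1 at 5.32 and 6.80, and STEAP2 at 0.985 and 1.04, with TMPRSS2 at 0. STEAP1 thus led in PC3 and FKBP5 in DU145, and NR3C1, STEAP2 and TMPRSS2 followed in that order in both lines. Neighbours in either order did not overlap between the libraries of the line. By mean log2 RPKM (pseudocount 0.1), STEAP1 stood above 89.0% of the 21731 genes tested, FKBP5 above 81.8%, NR3C1 above 59.8% and STEAP2 above 32.4%.

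**Figure D1:**
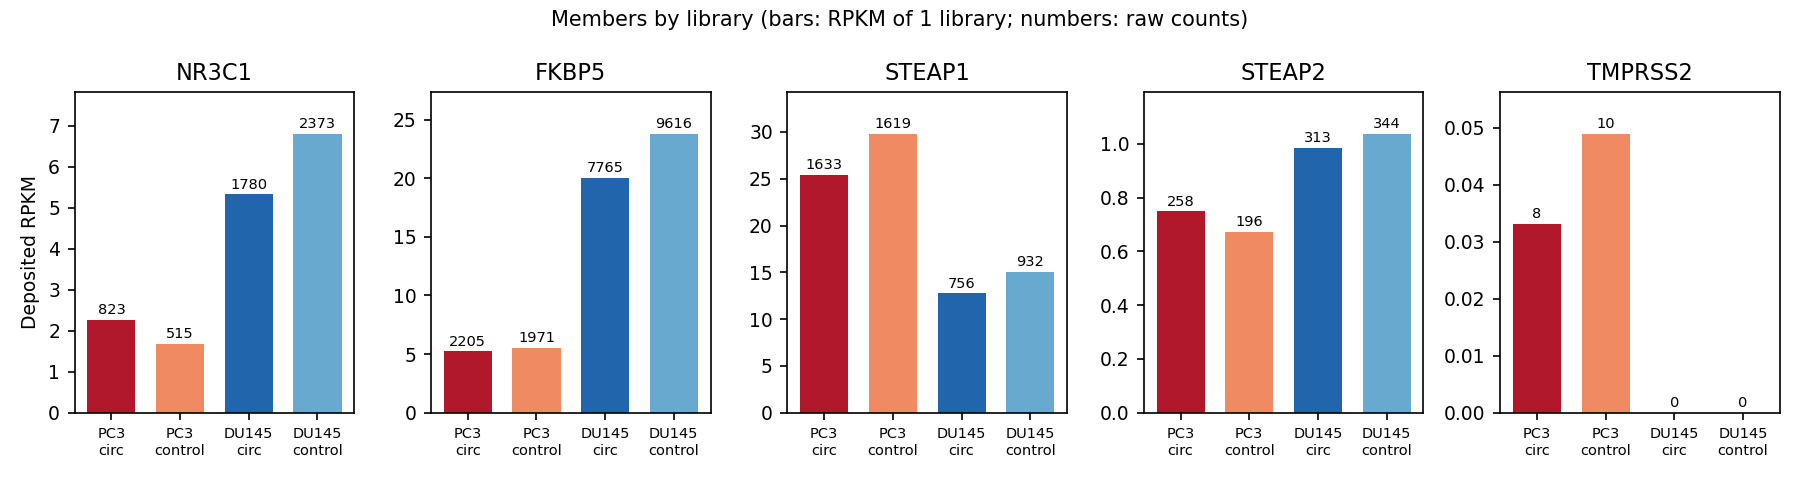
Deposited RPKM of the 5 members with a row, by library, in PC3 with circ0003553, PC3 with the control, DU145 with circ0003553 and DU145 with the control. Each bar is 1 library, the number above it is its raw count, and each panel has its own scale from 0. FKBP5 and NR3C1 are lower in both PC3 libraries and STEAP1 is higher in them, with no overlap between lines.

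The first comparison asked how the lines differ, with the libraries of a line as its replicates and the plasmid as a block. NR3C1, FKBP5 and STEAP2 were lower in PC3 than in DU145 and STEAP1 was higher, and all 4 passed the test. These 4 members passed the filter on low counts in each library, with 196 counts as the smallest value, and TMPRSS2 did not pass it. Calls were the rule rather than the exception here: edgeR's quasi-likelihood test called 66.0% of all genes tested at an adjusted p of 0.05 (Benjamini-Hochberg), 33.1% higher and 32.9% lower in PC3. The p-values measure only the spread between these libraries, which may be technical, and in bulk RNA fewer expressing cells and less RNA per cell cannot be told apart.

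NR3C1, on the minus strand of chromosome 5 from 143277931 to 143435512 (hg38, coordinates of the deposited table), had 823 and 515 counts in PC3 with circ0003553 and with the control, against 1780 and 2373 in DU145. Both PC3 libraries lay below both DU145 libraries. It averaged 1.98 ± 0.42 RPKM in PC3 and 6.06 ± 1.04 RPKM in DU145 (SD, n = 2 libraries each). The fitted log2 fold change was -1.54 ± 0.15 (SE), 2.92-fold lower in PC3 (adjusted p = 2.75e-07, edgeR). The gap was narrower between the circ0003553 libraries, at a log2 ratio of -1.19, than between the control libraries, at -1.91.

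FKBP5 lies on the minus strand of chromosome 6 from 35573585 to 35728583. Its counts were 2205 and 1971 in PC3 with circ0003553 and with the control, against 7765 and 9616 in DU145, again with no overlap between lines. It averaged 5.40 ± 0.21 RPKM in PC3 and 21.9 ± 2.6 RPKM in DU145 (SD, n = 2 libraries each), a fitted log2 fold change of -1.94 ± 0.10 (SE, 3.85-fold lower in PC3, adjusted p = 3.08e-10 in edgeR). Beside NR3C1, the ratio of FKBP5 to NR3C1 in RPKM was 2.31 and 3.30 in PC3, against 3.76 and 3.50 in DU145. The ratio was lowest in the PC3 circ0003553 library, and both PC3 values lay below both DU145 values.

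STEAP1 and STEAP2 encode six-transmembrane proteins of the prostate epithelium, of which STEAP2 is a metalloreductase and STEAP1 an electron carrier used as a surface target in prostate cancer. The genes are neighbours on the plus strand of chromosome 7, STEAP1 from 90154375 to 90164829 and STEAP2 from 90167590 to 90238137, with 2760 bases between them in the deposited gene models. The RefSeq start shown above for STEAP2 lies inside that deposited gene model. They went opposite ways between lines. STEAP1 had 1633 and 1619 counts in PC3 with circ0003553 and with the control, against 756 and 932 in DU145, and both PC3 libraries were the higher. Its fitted log2 fold change was 1.06 ± 0.11 (SE, 2.09-fold higher in PC3, adjusted p = 6.59e-07 in edgeR).

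STEAP2 had 258 and 196 counts in PC3, against 313 and 344 in DU145. The RPKM ranges of the lines did not overlap (0.711 ± 0.055 in PC3 and 1.01 ± 0.04 in DU145, SD, n = 2 libraries each). Its fitted log2 fold change was -0.44 ± 0.16 (SE, 1.35-fold lower in PC3, adjusted p = 0.0284 in edgeR). DESeq2 did not call it (adjusted p = 0.258), nor did edgeR without a filter on low counts (0.0516), and over all alternatives the adjusted p ran between 0.0171 and 0.258. The ratio of STEAP1 to STEAP2 in RPKM was 33.9 and 44.3 in PC3, against 13.0 and 14.5 in DU145.

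Of the other STEAP genes, STEAP1B, a close paralog of STEAP1, had 9 and 12 counts in PC3, against 130 and 181 in DU145 (fitted log2 fold change -3.75 ± 0.35, adjusted p = 2.25e-07, edgeR). The 9 counts in PC3 with circ0003553 fell under the filter's minimum count of 10. STEAP1B thus passed the filter only with the DU145 libraries, where it is high, so the filter favoured a call in that direction. Reads that match both STEAP1 and STEAP1B may have been split between them, so either value is uncertain to that extent. STEAP1B moved opposite to STEAP1, and STEAP1 stood above it in RPKM by 259-fold and 192-fold in PC3, against 8.29-fold and 7.34-fold in DU145. STEAP3, the endosomal ferrireductase, was 1.61-fold higher in PC3 (adjusted p = 7.69e-05). STEAP4, another metalloreductase, had 0 and 4 counts in PC3, against 12 and 10 in DU145, and was not tested.

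TMPRSS2, on the minus strand of chromosome 21 from 41464551 to 41531116, had 8 counts in PC3 with circ0003553 and 10 in PC3 with the control, against 0 in both DU145 libraries. Over the libraries of a line, the lower 95% limit of the PC3 to DU145 ratio was 4.72 (exact binomial, counting error only), and it would be lower if counts came in pairs. This is near the limit of detection: 3 counts correspond to 0.0773 and 0.0928 scaled CPM in PC3, and to 0.0815 and 0.0759 in DU145 with circ0003553 and with the control. Without the filter on low counts, where it could be fitted, the adjusted p for PC3 against DU145 was 0.0406 by edgeR's quasi-likelihood test. Expression in DU145 was not detectable at this depth.

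None of the 5 members with a row shared an exon base with another gene of the deposited table on either strand. The genes that lie within their spans without sharing exons are small nucleolar RNA, microRNA or pseudogene entries, and the most abundant of them, RPL7P21 inside NR3C1, had 40 to 68 counts.

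NR3C2 and ESR2, which encode other steroid receptors, were higher in PC3, while NR3C1 was lower. NR3C2, the mineralocorticoid receptor, had 81 and 74 counts in PC3, against 14 and 12 in DU145 (6.36-fold higher, adjusted p = 2.07e-05, edgeR). ESR2, the oestrogen receptor beta gene, had 172 and 125 counts in PC3, against 28 and 53 in DU145 (3.94-fold higher, adjusted p = 2.63e-05).

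ESR1 and PGR had at most 13 and 8 counts in any library and were not tested. NR3C1 exceeded NR3C2 in RPKM by 7.32-fold and 5.01-fold in PC3, against 91.6-fold and 142-fold in DU145.

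**Figure D2:**
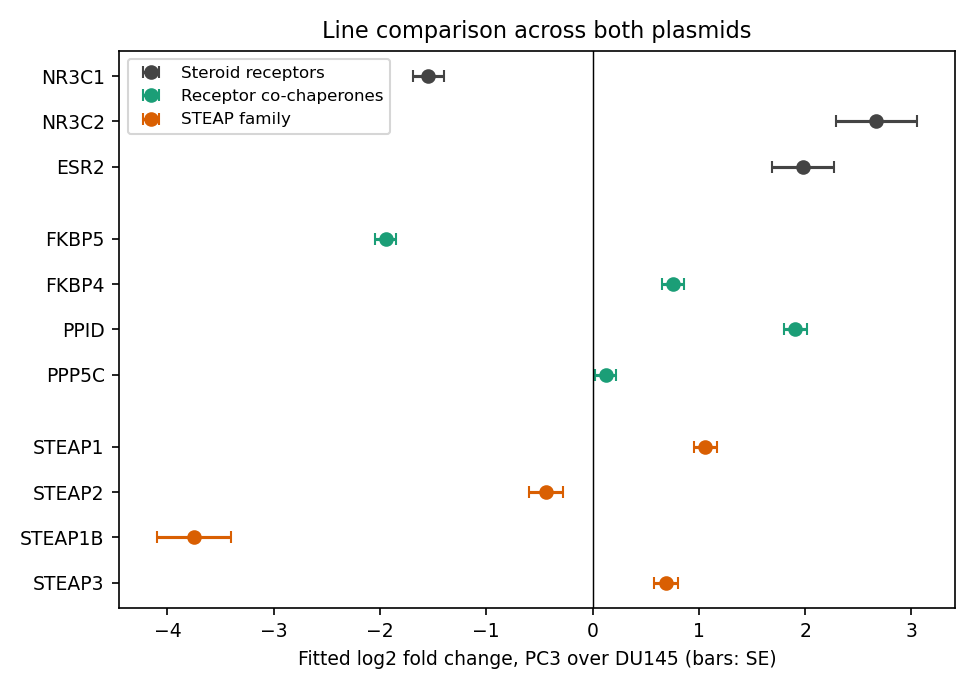
Fitted log2 fold changes of PC3 over DU145 with SE (n = 2 libraries per line) for steroid receptors, tetratricopeptide co-chaperones of HSP90 and the STEAP family. NR3C1, FKBP5, STEAP2 and STEAP1B lie left of 0, and NR3C2, ESR2, FKBP4, PPID, STEAP1 and STEAP3 lie to the right.

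Among 17 chaperones and co-chaperones of steroid receptors, all tested, 7 were higher in PC3, 4 were lower and 6 were not called, with a median log2 fold change of 0.10, against 0.00 (0.000991) over all genes. Calls were made for 66.0% of all genes tested. FKBP5 had the lowest value of the list. FKBP4, the paralog that competes with FKBP5 for HSP90 and favours receptor transport, was 1.69-fold higher in PC3 (adjusted p = 1.73e-05, edgeR). PPID, the cyclophilin of the same complexes, was 3.75-fold higher (adjusted p = 1.14e-09). HSP90AA1 and CDC37, an HSP90 isoform and its kinase-directed partner, were 1.56-fold and 1.47-fold higher (adjusted p = 0.000492 and 0.000847). HSPA8, SGTA and BAG1, which handle receptors before or outside the HSP90 step, were lower, at log2 fold changes of -0.57, -0.48 and -0.43 (adjusted p = 0.000201, 0.000927 and 0.00174).

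Known glucocorticoid-induced genes were split between lines. Of 24 listed, 22 were tested: 7 were higher in PC3, 12 were lower, FKBP5 among them, and 3 were not called, and the median log2 fold change was -0.86. Over all genes tested, 33.1% were called higher and 32.9% lower. SDPR, a caveolar coat gene, had 20 and 32 counts in PC3, against 3962 and 2627 in DU145. LCN2, a secreted lipocalin, and DDIT4, an inhibitor of mTORC1, were 9.67-fold and 8.08-fold lower in PC3 (adjusted p = 7.6e-09 and 4.11e-10, edgeR). With FKBP5 left out, 11 of the 21 other tested genes were lower in PC3, as FKBP5 was, and 7 were higher. Some widely used glucocorticoid reporters were among the 7 and did not follow FKBP5. TSC22D3, which encodes the leucine zipper protein GILZ, was 3.35-fold higher in PC3 (adjusted p = 5.22e-07), with 333 counts in its lower PC3 library and 129 in its higher DU145 library. PER1, a circadian repressor, was 3.87-fold higher in PC3, RGS2, a G protein regulator, 9.97-fold and MAOA, a monoamine oxidase, 3.34-fold (adjusted p = 1.69e-06, 5.51e-11 and 1.76e-07).

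Androgen-responsive genes showed no common direction. Of 36 listed, 29 were tested: 12 were higher in PC3, 10 were lower and 7 were not called, with a median of -0.12, and FKBP5, STEAP1 and STEAP2 are counted among them. The share called over all genes tested was 66.0%. KLK4, a kallikrein of the same chromosome 19 cluster as KLK2 and KLK3, had 16 and 12 counts in PC3, against 0 in both DU145 libraries, with a lower 95% limit of 7.62 for the ratio (exact binomial, counting error only). ACPP, prostatic acid phosphatase, had 20 and 14 counts in PC3, against 0 and 4 in DU145, and was not called with DESeq2. KLK4 and ACPP passed the filter through the PC3 libraries alone and so had to differ. SPDEF, an ETS factor of luminal cells, and NDRG1, a stress-responsive gene, were 7.02-fold and 4.05-fold higher in PC3 (adjusted p = 7.51e-09 and 7.21e-10). In the other direction, NNMT, a nicotinamide methyltransferase, had 14 and 5 counts in PC3, against 3451 and 6661 in DU145. With 5 counts in PC3 with the control, NNMT passed the filter only with the DU145 libraries, where it is high. The filter thus favoured the direction of its call. C1orf116 and PMEPA1, an inhibitor of TGF-beta signalling, were lower by log2 fold changes of -3.76 and -2.09 (adjusted p = 4.13e-12 and 2.67e-09).

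Of 20 genes of prostate luminal identity 11 were tested, and all 11 were called, 4 higher and 7 lower in PC3. DESeq2 called 8 of the 11, and edgeR called 66.0% of all genes tested. HOXB13, the prostate homeobox gene, had 4442 and 4206 counts in PC3, against 2 and 0 in DU145. HOXB13 and ACPP, which are 2 of the 4 higher genes, passed the filter through the PC3 libraries alone and so had to differ. SLC45A3, which encodes prostein, was 2.25-fold higher in PC3 (adjusted p = 5.21e-05, edgeR). CD24, KRT8, KRT18 and PSCA were lower, at log2 fold changes of -3.58, -2.53, -1.97 and -1.73, and the call of PSCA was lost with DESeq2. Among kallikreins, 3 of 15 listed passed the filter, and KLK4 and KLK14 were called higher in PC3, KLK14 not with DESeq2. Both passed it through the PC3 libraries alone, so that direction was fixed by the filter. Among transmembrane serine proteases and their inhibitors, 4 of 14 listed were tested and all 4 were lower in PC3, as were 32.9% of all genes tested. They included the epithelial protease ST14 (matriptase, 21.0-fold lower, adjusted p = 3.97e-09) and its inhibitors SPINT1 and SPINT2 (log2 fold changes -0.96 and -0.9997). The last was TMPRSS6, not called with DESeq2. Of 5 genes listed as folate hydrolase relatives of FOLH1, 2 were tested, and NAALADL2 was called higher in PC3 (log2 fold change 1.26), though not with DESeq2.

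Receptor coregulators were tested for 19 of 20 genes, with 6 higher in PC3, 4 lower and 9 not called, and a median of 0.00 (0.00398). Among all genes tested 66.0% were called. SMARCA4, an ATPase of the SWI/SNF remodelling complex, had 33898 and 28528 counts in PC3, against 3082 and 2958 in DU145 (11.1-fold, adjusted p = 1.64e-12, edgeR). NRIP1, a corepressor, was 2.34-fold higher and NCOR1, another corepressor, had a log2 fold change of 0.65. NCOA4, MED1, the pioneer factor FOXA1 and NCOA1 were lower, at -1.21, -0.99, -0.71 and -0.40, the last lost with DESeq2 and without the filter. HOXB13 is counted among the 6 higher genes.

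**Figure D3:**
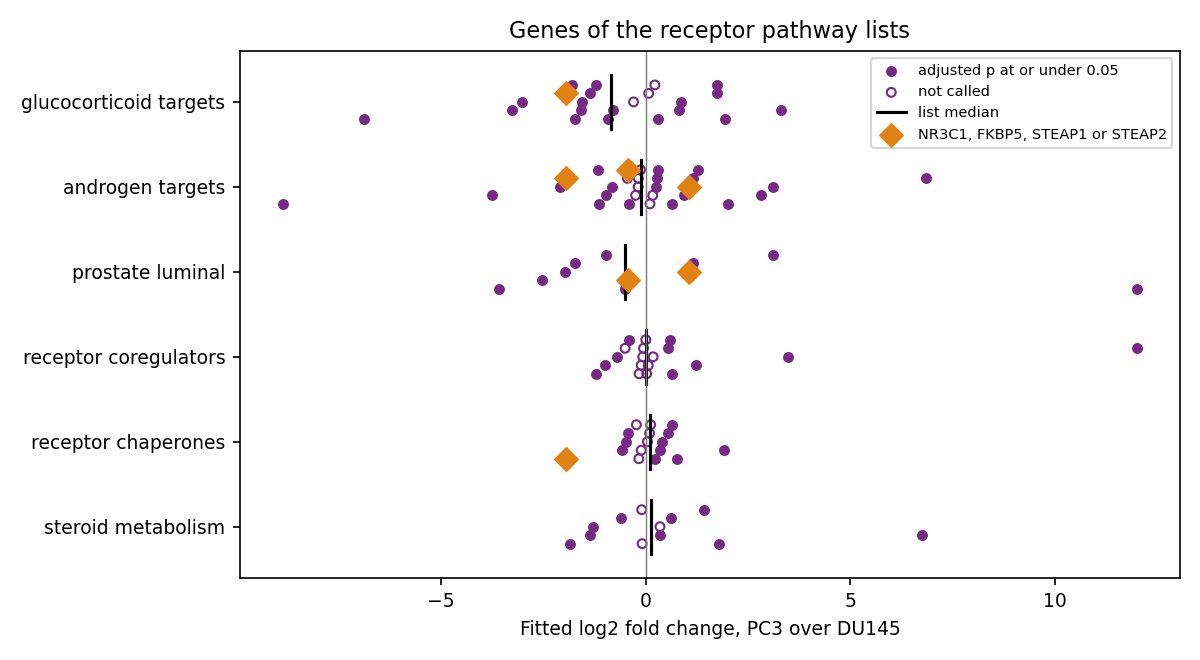
Fitted log2 fold changes of PC3 over DU145 for each tested gene of 6 lists. Filled points passed an adjusted p of 0.05, open points did not, vertical bars are list medians and diamonds are members. The glucocorticoid list has a median of -0.86 and the other medians lie between -0.50 and 0.13.

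The second comparison asked whether the members differed between the circ0003553 and the control plasmid. None of the 4 tested members was called across the lines by edgeR's quasi-likelihood test with the line as a block, with 0 at an unadjusted p under 0.05, 0 called by DESeq2 and 0 by limma-voom. Over all genes, 0.465% were called (0.396% higher and 0.0690% lower with circ0003553), and 8.88% had an unadjusted p under 0.05 (4.86% in the higher direction). Only 1 degree of freedom was left for the residual, and the spread borrowed from all genes added 13.4. FKBP5 averaged 12.6 ± 10.5 RPKM with circ0003553 and 14.7 ± 12.9 RPKM with the control (SD, n = 2 libraries each), a spread that holds the difference between lines. Its fitted log2 fold change was -0.16 ± 0.10 (SE, adjusted p = 0.716), and STEAP1 had -0.23 ± 0.11 (adjusted p = 0.572, unadjusted 0.0543). NR3C1 had 0.021 ± 0.144 (adjusted p = 0.988) and STEAP2 0.043 ± 0.163 (adjusted p = 0.974).

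Within a line there was 1 library per plasmid and so no test. STEAP1 was lower with circ0003553 in both lines, at a ratio of 0.840 in PC3 (95% exact binomial interval 0.784 to 0.9002, counting error only) and 0.871 in DU145 (0.790 to 0.960). Halving the counts widened these to 0.761 to 0.927 in PC3 and 0.759 to 0.9999 in DU145. FKBP5 had ratios of 0.932 in PC3 (0.876 to 0.990, and 0.854 to 1.02 with halved counts) and 0.867 in DU145 (0.842 to 0.894). NR3C1 was 1.33-fold higher with circ0003553 in PC3 (1.19 to 1.49) and had a ratio of 0.806 in DU145 (0.757 to 0.857). STEAP2 had ratios of 1.10 in PC3 (0.907 to 1.33) and 0.977 in DU145 (0.836 to 1.14). TMPRSS2 had a ratio of 0.666 in PC3 (0.228 to 1.87).

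No member was 2-fold apart between plasmids in either line, against 1.16% of genes in PC3 (0.824% higher and 0.334% lower) and 2.02% in DU145 (1.03% higher and 0.992% lower), among genes with at least 50 counts over the 2 libraries of the line. The NR3C1 intervals of the lines did not overlap, including those from halved counts (1.14 to 1.56 in PC3 and 0.737 to 0.879 in DU145). These intervals cover counting error only, and the share of all genes whose intervals lay apart was not computed. An interaction of line and plasmid could not be tested. Ratios of opposite sign in the lines were found for 44.1% of genes with that many counts in both lines.

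**Figure D4:**
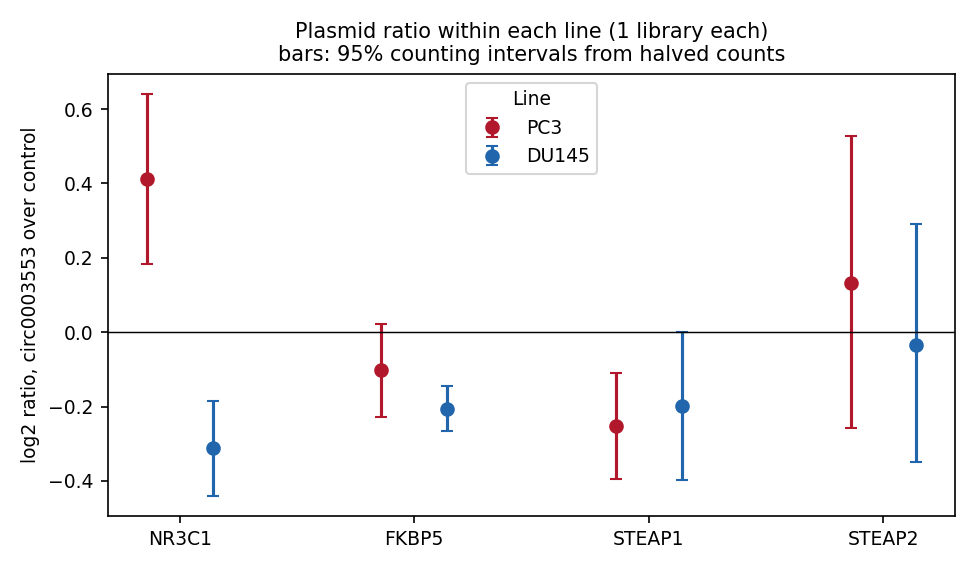
Log2 ratio of circ0003553 over control within PC3 and within DU145 for the 4 tested members, from scaled counts of 1 library each, with 95% counting intervals from halved counts. NR3C1 lies above 0 in PC3 and below 0 in DU145, and STEAP1 lies below 0 in both.

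By Euclidean distance of log2 RPKM centred on the gene mean over the 4 libraries, the genes nearest to NR3C1 were TAPBPL and NEAT1_2 (distances 0.063 and 0.064), with 52 of 14997 genes within 0.25. The nearest to FKBP5 were LRRC37BP1 and SPATA24 (0.035 and 0.054, 130 genes within 0.25). STEAP1 was nearest to SEC14L2 and SDHAF3 (0.022 and 0.048, 408 genes) and STEAP2 to VPS41 and RING1 (0.017 and 0.020, 1594 genes). Each profile has 4 points from 2 lines, so these genes share above all their difference between lines.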

How the data were processed

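RNA of 4 libraries, 1 per cell line and plasmid, was measured by sequencing. Per the labels' protocols, ribosomal RNA was depleted and strand-marking libraries carried molecular identifiers. Tools listed in the submitters' processing notes were edgeR 3.12.1, Subread 1.5.1 with featureCounts, and Trimmomatic 0.36, with hg38 as the build. Aligner, strand setting and use of the identifiers: not given in the sources used here. Per the file headers, the authors' table holds a raw count and an RPKM value for each gene and library. The deposited RPKM equalled counts over length and library total within a relative difference of 1e-09. Columns marked NC were taken as negative control and those marked RCAN3 as the overexpression plasmid.

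Genes with low counts were removed (filterByExpr by plasmid, minimum count 10), leaving 21731 of 35211. edgeR 4.0.16 (R 4.3.3) fitted line and plasmid with TMM scaling and the quasi-likelihood test, limma 3.58.1 and DESeq2 1.42.0 served as alternatives, and p-values were adjusted over all genes tested. SE was taken as the size of the fitted log2 value over √F. The pairing of libraries by line comes from the labels. Ratios within a line used effective library sizes, with a prior count of 2 for log2 values, and intervals and floors cover counting error only. The script was tested on simulated data. Totals were 39488890, 33438509, 36461229 and 38047428 counts in PC3 with circ0003553, PC3 with the control, DU145 with circ0003553 and DU145 with the control.

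Members, lists and tests were chosen with earlier results of these data known. The 17 lists held 204 entries, of which 181 had a row. From each list the called genes with the largest fold changes were named, at most 4 per direction, beside the steroid receptors with a row, of which 1 is not reported here, and the 2 genes nearest to each tested member by profile. SDPR and ACPP are the table's older symbols of CAVIN2 and ACP3. Alternatives were RLE and total-count scaling, DESeq2, limma-voom, legacy dispersions, no filter, halved counts, no block, another prior count and leaving out a line or plasmid.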

Additional observations from a re-analysis of the deposited data

Results flagged for a closer look

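Members whose ratio of circ0003553 to control had opposite signs in the lines were singled out. NR3C1 had a log2 ratio of 0.41 in PC3 and -0.31 in DU145, a difference of 0.72, from 1 library per plasmid and line. STEAP2 had 0.13 in PC3 and -0.033 in DU145, a difference of 0.16, and its counting intervals in the lines overlapped. Neither difference was tested, since an interaction leaves no residual degrees of freedom, and 44.1% of genes with at least 50 counts in each line had opposite signs.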

How the results depend on the processing

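The count of genes called between plasmids was 101, and it was 9 without a filter, 26 with limma-voom, 53 with legacy dispersions, 63 with DESeq2 and 0 with no replicate block (26 at an unadjusted p under 0.05, edgeR). The blocked fit is the one reported, with pairing by line. No member was called between plasmids under any of these settings. The NR3C1 log2 fold change between plasmids turned to -0.032 with limma-voom, -0.00329 with halved counts and -0.13 with no replicate block, and the cause was not tested. Leaving out a line left the ratio in the other, -0.31 to 0.41 for NR3C1, -0.21 to -0.10 for FKBP5, -0.25 to -0.20 for STEAP1 and -0.033 to 0.13 for STEAP2. Between lines, NR3C1 ran from -1.91 to -1.19 over the 10 alternatives, FKBP5 from -2.02 to -1.89 and STEAP1 from 0.99 to 1.09, and each was called wherever a test was run. STEAP2 ran from -0.52 to -0.35 and lost its call with DESeq2 (adjusted p = 0.258) and without a filter (0.0516). Total-count scaling moved the median of all genes by -0.07 between lines. The calls of SORD, ACSL3, AKR1C2, AKR1C3, GNMT, HERC3 and PTGES3 between lines were lost in at least 3 settings. Leaving out a plasmid moved the difference between lines by over 1.5 times for some named genes, with log2 ratios under circ0003553 and control of -7.56 and -5.99 for SDPR, -7.82 and -9.66 for NNMT, -2.98 and -4.19 for CD24 and -1.13 and -2.40 for TMPRSS6. PER1, at 2.54 and 1.41, and ESR2, at 2.46 and 1.49, were also among these genes. The depth cannot resolve TMPRSS2 or KLK4 in DU145.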

Other observations

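Of 22 listed enzymes that make or remove active steroids, 12 were tested, with 5 higher in PC3, 4 lower and 3 not called, where 66.0% of all genes were called. SRD5A1, which converts testosterone to dihydrotestosterone, had 258 and 268 counts in PC3 with circ0003553 and with the control, against 956 and 1076 in DU145 (3.58-fold lower, adjusted p = 1.64e-08, edgeR's quasi-likelihood test). H6PD, which supplies the cofactor of HSD11B1 for making cortisol, was 2.42-fold lower (adjusted p = 1.14e-06). STS, the steroid sulfatase, was 2.70-fold higher in PC3 (adjusted p = 2.03e-06) and AKR1C1, which inactivates progesterone, 3.49-fold (3.36e-05), with log2 ratios of 2.60 and 1.154 under circ0003553 and control. AKR1C3, which makes testosterone, had a log2 ratio of 1.27 between the circ0003553 libraries and 0.019 between the control libraries. AKR1C2, which removes dihydrotestosterone, had 34 and 16 counts in PC3, against 28 and 125 in DU145, and its log2 ratio was 0.19 under circ0003553 and -2.55 under the control, so the DU145 control library decides its direction. Neither was called with DESeq2. These AKR1C genes are close paralogs, so reads may be split between them. HSD17B4 was at -0.59. HSD17B2, which oxidises testosterone to its weaker form, had 150 and 82 counts in PC3, against 2 and 0 in DU145, and passed the filter through the PC3 libraries alone.

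Among the tested genes of the pathway lists, none was called between plasmids by edgeR's quasi-likelihood test, DESeq2 or limma-voom. By edgeR 21 of them had an unadjusted p under 0.05, as did 8.88% of all genes tested. The 21 included 2 of the 19 tested coregulators and 2 of the 12 tested steroid enzymes. They also included 1 of the 17 tested chaperones and 1 of the 11 tested luminal genes, and the rest are given below. Under other edgeR settings 3 genes of the lists were called, ANGPTL4 and PTGER4 with RLE scaling (adjusted p = 0.0399 and 0.0473) and NNMT with halved counts (0.0290). Of the 22 tested glucocorticoid-induced genes 8 had an unadjusted p under 0.05, each with a fitted value above 0 for circ0003553, while 4.86% of all genes were higher at that level. They were DUSP1, ERRFI1, DDIT4, SDPR, LCN2, TFCP2L1, ANGPTL4 and STOM, singled out after their values were seen. SDPR was lower with circ0003553 in PC3 (20 counts, against 32 with the control; log2 ratio -0.87) and higher in DU145 (0.70), and the other 7 had ratios above 0 in both lines. ANGPTL4, a lipoprotein lipase inhibitor, had the largest log2 fold change of the 8, 0.82, with an adjusted p of 0.0544. The list median between plasmids was 0.21, against 0.00 (0.00303) over all genes, and FKBP5 was at -0.16. Such genes were not particular to this list. Of the 29 tested androgen-responsive genes, 7 had an unadjusted p under 0.05 by edgeR, and that list's median was -0.016. PMEPA1 and NNMT were lower with circ0003553, and NDRG1, C1orf116, PTGER4 (log2 fold change 0.84), MPC2 and SORD were higher.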
